A study of Mus musculus with 36 samples.

Results

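Aminoacyl-tRNA synthetases are the enzymes that join each amino acid to its tRNA. They were followed as a family through all 12 groups of the series. The members were the protein-coding genes named by the one-letter code of an amino acid followed by "ars" (with 2 at the end of the name for most mitochondrial enzymes), plus Eprs, Farsa, Farsb and Ears2. That gave 37 of the 46078 genes counted, 20 cytosolic (no 2 in the name) and 17 mitochondrial (names ending in 2). All 37 had counts in every one of the 36 libraries, with a lowest count of 43, and all 37 passed the filter on low counts. Tarsl2 and Aarsd1, which are related genes, lie outside the naming rule.

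RM-1-BM is a mouse prostate cancer cell line. It had been transduced with an empty vector or with the F133V mutant of SPOP. The normal SPOP protein recruits substrates to a ubiquitin ligase. The cancer cells grew alone or in a transwell with RAW264.7 mouse macrophages, and each culture received the PARP inhibitor olaparib or its vehicle DMSO. Crossing genotype, culture and treatment gave 8 cancer groups. The 4 macrophage groups are named here by the cancer cells they faced and by the treatment, and every group had 3 libraries. All macrophages came from cocultures, so none shows the macrophage without a cancer partner. The labels give no dose or time, nor whether the transduced cells were clones. They also do not state if replicate libraries stem from independent cultures, so each p-value reflects variation among these libraries alone, which may be technical.

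In the cytosol, 20 genes provide the full set of enzymes, since Eprs encodes a fused enzyme for glutamate and proline, and Farsa and Farsb encode the subunits of the enzyme for phenylalanine. Gars and Kars each serve both the cytosol and the mitochondria from a single gene, so they count here with the cytosolic members. The mitochondrial enzymes are made in the cytosol and imported, and they charge the tRNAs used to translate the few proteins encoded by mitochondrial DNA. Many cytosolic synthetase genes are known targets of ATF4, the transcription factor of the amino acid and stress response, whereas Wars is also known as an interferon-inducible gene. Several of the cytosolic enzymes sit in the multisynthetase complex, held by the scaffold proteins encoded by Aimp1, Aimp2 and Eef1e1.

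Gene counts per library ranged from 30292309 to 43062440 (median 36623720), and the 37 members took 0.7% to 1.18% of them. Spop itself read 104 to 107 CPM (counts scaled to library size with TMM factors) in the 3 F133V libraries grown alone with DMSO and 116 to 120 CPM in the matching vector libraries. Spop was thus not higher in F133V cells, and how much of the introduced construct these counts can include was not tested. Summed over 14 macrophage markers, cancer libraries held 13.5 to 33.5 CPM and macrophage libraries 14204 to 16501 CPM. The macrophage marker Lyz2 read 3.38 and 4.36 CPM in replicates 1 and 2 of vector cells alone with DMSO, against 0.7 CPM in replicate 3. F133V libraries with DMSO also carried more of the noncoding RNA Gm26917 (38737 CPM alone and 41532 CPM in coculture, against 1895 and 2561 CPM in vector cells) and of the mitochondrial ribosomal RNA mt-Rnr2 (4198 and 5019 CPM, against 994 and 1038 CPM). In F133V cells with olaparib, Gm26917 stood at 13733 CPM alone and 4929 CPM in coculture. The part of these RNAs in the F133V results below was not tested, except where a value is given.

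Per length of the merged exons of all transcripts, the cytosolic class stood far above the mitochondrial class in every group. Medians of the 20 cytosolic members were 40.9 to 56.5 CPM per kb in the 8 cancer groups and 32.5 to 39.1 CPM per kb in the 4 macrophage groups. Medians of the mitochondrial members other than Lars2 were 2.67 to 3.48 CPM per kb in cancer cells and 4.22 to 4.42 CPM per kb in macrophages. At the top of the cytosolic class in cancer cells stood Gars, Sars or Nars, depending on the group, while Sars led in all 4 macrophage groups. Farsa was the lowest cytosolic member in all 12 groups, at 8.0 to 15.4 CPM per kb. Apart from Lars2, the highest mitochondrial member was Iars2 in 7 of the 8 cancer groups (14.2 to 15.9 CPM per kb) and Yars2 in the other one, F133V coculture with DMSO.

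**Figure D1:**
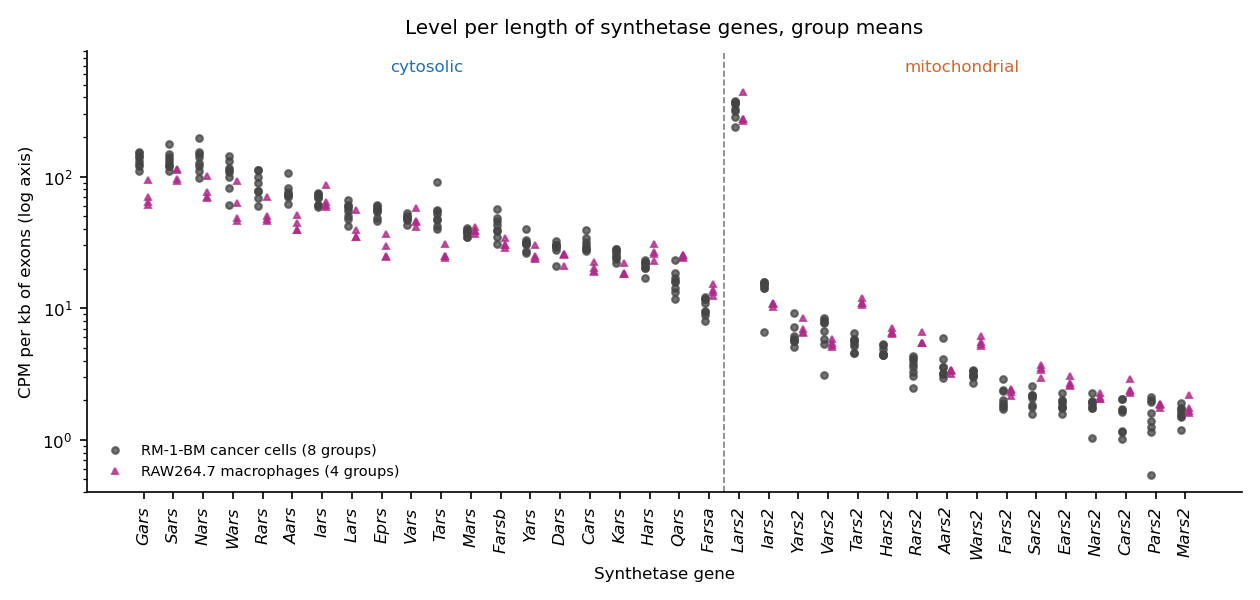
Level per length of 36 synthetase genes (CPM per kb of exons, log axis), with 1 point for the mean of each of the 8 cancer groups (grey circles) and 4 macrophage groups (purple triangles), and genes ordered by level within each class. Most cytosolic members lie above the mitochondrial ones, but Farsa and Qars overlap the ranges of some of them, such as Iars2 and Tars2. Lars2 lies far above its class at 240 to 438 CPM per kb.

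Lars2, the mitochondrial leucine enzyme (chromosome 9, 123366927 to 123462666, plus strand, GRCm38), stood apart from the whole class. It received 62962 to 184514 counts per library, which was 21.7% to 53.0% of all counts of the 37 members. Its levels also varied more between libraries of a group, with a median coefficient of variation of 6.55% and up to 29.0%, against a median of 1.46% for cytosolic members and 4.04% for the other mitochondrial ones. In F133V cells alone with olaparib its 3 libraries read 3115, 3099 and 1877 CPM, and in macrophages with an F133V partner and DMSO they read 3401, 1944 and 3421 CPM. A single library is far below the others in each of these groups. Lars2 counts were 20.8 to 27.6 times (median 25.6) those of Gm15564, an RNA gene on another chromosome, in all 36 libraries, although the 2 genes ranged 2.93-fold and 2.81-fold between libraries. A stretch of 52 bases, from base 3278 of the 3894 bases of the transcript Lars2-201, is identical in a Gm15564 transcript. Whether reads of another RNA were counted for Lars2 was not tested, and the medians below are therefore given with and without it where that matters.

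**Figure D2:**
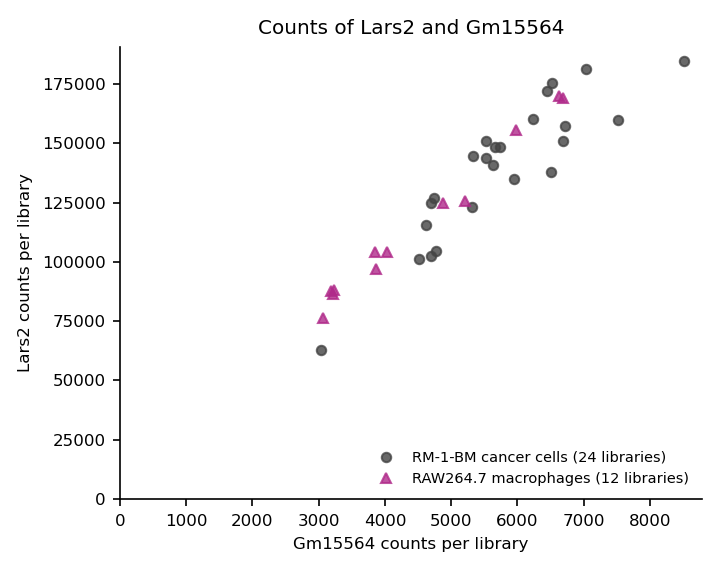
Counts of Lars2 (vertical axis) against counts of Gm15564 (horizontal axis) in 24 cancer libraries (grey circles) and 12 macrophage libraries (purple triangles), both axes linear from 0. Points lie near a line through the origin, with ratios between 20.8 and 27.6.

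F133V and vector cells were compared first in cells grown alone with DMSO. The cytosolic members Rars, Wars and Farsb, which charge arginine, tryptophan and, as the beta subunit, phenylalanine, were about 1.5-fold higher in F133V cells, while several mitochondrial members were lower. Of the 20 cytosolic members 10 were higher and 4 lower (median log2 fold change 0.07), and of the 17 mitochondrial members 4 were higher and 8 lower (median −0.02, or −0.06 without Lars2). Of all 15962 genes tested, 33.7% were called higher and 34.0% lower, and the median was 0.00. A gene is called here at a Benjamini-Hochberg adjusted p under 0.05 over all genes, in edgeR's quasi-likelihood test. A lower level in bulk RNA cannot be told apart from fewer cells that express the gene.

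Rars read 376, 376 and 379 CPM in F133V cells and 256, 257 and 254 CPM in vector cells, a log2 fold change of 0.56 ± 0.02 (SE; adjusted p = 3.7e-22). Wars read 411, 399 and 401 CPM against 279, 285 and 285 CPM (0.51 ± 0.02, adjusted p = 4.5e-21). Farsb read 151, 154 and 155 CPM against 100, 104 and 103 CPM (0.58 ± 0.03, adjusted p = 3.2e-21). In all 3 genes every F133V library lay above every vector library. Farsa, which encodes the other subunit of the phenylalanine enzyme, read 41.9 ± 1.27 CPM (SD, n = 3) and 43.5 ± 0.915 CPM and was not called. The ratio of Farsb to Farsa per length was therefore 6.32 ± 0.20 in F133V cells and 4.08 ± 0.15 in vector cells (SD, n = 3). Qars, the glutamine enzyme, fell the other way, at 89.2 ± 2.26 CPM against 113 ± 2.04 CPM (−0.35 ± 0.03, adjusted p = 7.8e-14).

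Among the mitochondrial members, Vars2, the valine enzyme, read 29.5, 30.8 and 29.7 CPM in F133V cells alone and 48.0, 43.0 and 44.7 CPM in vector cells (−0.59 ± 0.04, adjusted p = 2.6e-15). Rars2 and Cars2, the arginine and cysteine enzymes, were lower by similar steps (−0.49 ± 0.08 and −0.48 ± 0.07). Aars2, the alanine enzyme, was higher (0.39 ± 0.06), as were Yars2, Hars2 and Ears2 (0.25 to 0.26). Scaling by library size alone gave 11 members higher and 18 lower in place of 14 and 12, and a cytosolic median of −0.02. Removing trends on gene length and GC content gave 23 higher and 5 lower, and a mitochondrial median of 0.14. The cytosolic median minus the mitochondrial one, which does not depend on the scaling, was 0.08, with 0.07 to 0.11 under the other scalings, filters and fits tried, and 0.13 without Lars2.

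With olaparib the genotype difference of Rars and Wars in cells grown alone was wider. Rars read 360, 363 and 389 CPM in F133V cells and 192, 194 and 193 CPM in vector cells (0.94 ± 0.02, adjusted p = 2.7e-29), and Wars read 386, 396 and 367 CPM against 208, 209 and 214 CPM (0.87 ± 0.02). The groups do not overlap in either gene. Of the cytosolic members 13 were higher and 5 lower (median 0.20), and of the mitochondrial ones 3 were higher and 7 lower (median −0.10), against 34.3% of all genes higher and 33.2% lower. With length and GC trends removed, 20 members were higher and 7 lower in place of 16 and 12, and the mitochondrial median was 0.02. Pars2, the mitochondrial proline enzyme, was the lowest in F133V cells (4.47, 3.70 and 3.67 CPM against 6.82, 6.56 and 6.46 CPM; −0.74 ± 0.13, adjusted p = 2.2e-06). The difference in the olaparib response between genotypes, F133V minus vector, was called for 12 cytosolic and 6 mitochondrial members, against 24.2% of all genes. Rars (0.38 ± 0.03, adjusted p = 7.1e-11) and Wars (0.36 ± 0.03, adjusted p = 2e-10) had the smallest p, and 13 members had a positive and 5 a negative difference (19 and 2 with library size alone).

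**Figure D3:**
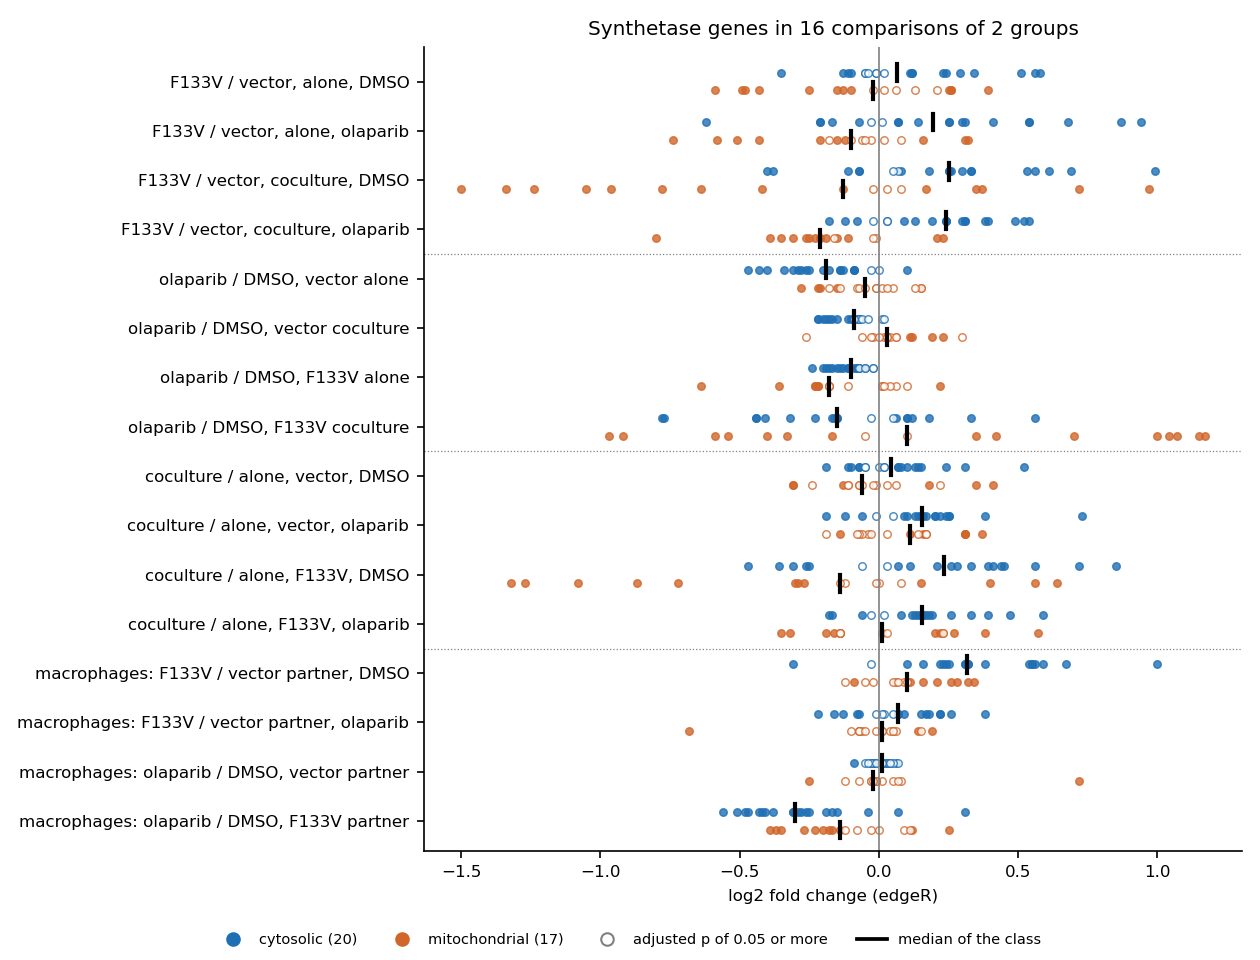
Log2 fold change of each of the 20 cytosolic (blue) and 17 mitochondrial (orange) members in 16 comparisons of 2 groups, first named over second. Filled points have an adjusted p under 0.05, open points do not, and black bars are the class medians. The cytosolic median lies above the mitochondrial one in all 4 genotype comparisons, and orange points spread from −1.50 to 0.97 for F133V against vector in coculture with DMSO.

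In coculture with DMSO, the mitochondrial members spread furthest, with Pars2, Vars2 and Iars2 among those lower in F133V cells by over 1 on the log2 scale while most cytosolic members were higher. F133V cells had 13 cytosolic members higher and 5 lower than vector cells (median 0.25), whereas 5 mitochondrial members were higher and 9 lower (median −0.13, or −0.28 without Lars2). Of all genes, 37.4% were called higher and 42.0% lower (median −0.06), so most genes moved in this comparison. The summed level of the 20 cytosolic members was 8157 ± 143 CPM in F133V and 6403 ± 56.6 CPM in vector cells (SD, n = 3). The sum of the 16 mitochondrial members other than Lars2 went the other way, with 306 ± 3.98 CPM in F133V and 397 ± 2.38 CPM in vector cells. A sum weighs members by their counts, and Iars2 and Vars2, given below, carry much of this fall. With 5 mitochondrial members higher, it does not describe the whole class. Among 14 amino acids with 1 cytosolic and 1 mitochondrial gene of the same letter, both genes were called in 12, in opposite directions in 9 of them. No other comparison had as many opposite pairs, but some came close. Olaparib against DMSO in F133V coculture had 8 opposite pairs and 5 in the same direction. For F133V against vector in coculture with olaparib the counts were 7 and 2, and for macrophages against cancer cells 7 and 4. How many opposite pairs unrelated genes would give was not tested. For F133V against vector cells alone with DMSO, 3 pairs had the same direction and 4 opposite ones. For coculture of vector cells with olaparib the counts were 4 and 0. For macrophages by partner with DMSO they were 5 and 1.

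Tars, the threonine enzyme (chromosome 15, 11382301 to 11399665, minus strand, GRCm38), gained most among the cytosolic members. It read 559, 572 and 567 CPM in F133V coculture and 286, 288 and 283 CPM in vector coculture (0.99 ± 0.02, adjusted p = 1.3e-32). Nars, the asparagine enzyme, read 895, 930 and 906 CPM against 557, 561 and 578 CPM (0.69 ± 0.02, adjusted p = 3.7e-28). Qars (chromosome 9, 108507706 to 108515941, plus strand) read 161, 163 and 159 CPM against 105, 106 and 105 CPM (0.61 ± 0.03, adjusted p = 3.5e-22). Thus Qars was above vector in coculture, although it was below vector in cells grown alone. Sars (0.56 ± 0.02) and Aars (0.53 ± 0.02) followed, while Dars (−0.40 ± 0.03) and Hars (−0.38 ± 0.03), the aspartate and histidine enzymes, were lower. Exons of Hars share 195 bases with Hars2 on the opposite strand, and 15.1% of the exon bases of Aars lie in exons of other genes, so without a stated strand setting these counts are uncertain.

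Among the mitochondrial members that fell furthest in this comparison were Pars2, Vars2 and Iars2, which charge proline, valine and isoleucine. Pars2 read 1.95, 1.86 and 1.53 CPM in F133V coculture and 5.07, 5.67 and 4.44 CPM in vector coculture (−1.50 ± 0.16, adjusted p = 3e-11). Vars2 (chromosome 17, 35655634 to 35667592, minus strand) read 19.5, 18.4 and 16.4 CPM against 43.0, 43.6 and 42.2 CPM (−1.24 ± 0.05, adjusted p = 2e-24). In each of these genes the F133V coculture libraries lie below every other cancer library. Iars2 (chromosome 1, 185284726 to 185329396, minus strand) read 60.8, 62.9 and 62.1 CPM against 130, 125 and 129 CPM (−1.05 ± 0.03, adjusted p = 9.2e-29). Cars2 (−0.96 ± 0.07), Nars2 (−0.78 ± 0.08), Rars2 (−0.64 ± 0.09) and Sars2 (−0.42 ± 0.09) were lower as well. The fall was not shared by the whole class, since Aars2 rose from 15.2 ± 0.801 to 29.8 ± 0.63 CPM (SD, n = 3; 0.97 ± 0.06, adjusted p = 1.6e-17) and Yars2 from 18.7 ± 0.392 to 30.8 ± 1.02 CPM (0.72 ± 0.05). Exons of Iars2 overlap other genes over 24.2% of their length.

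**Figure D4:**
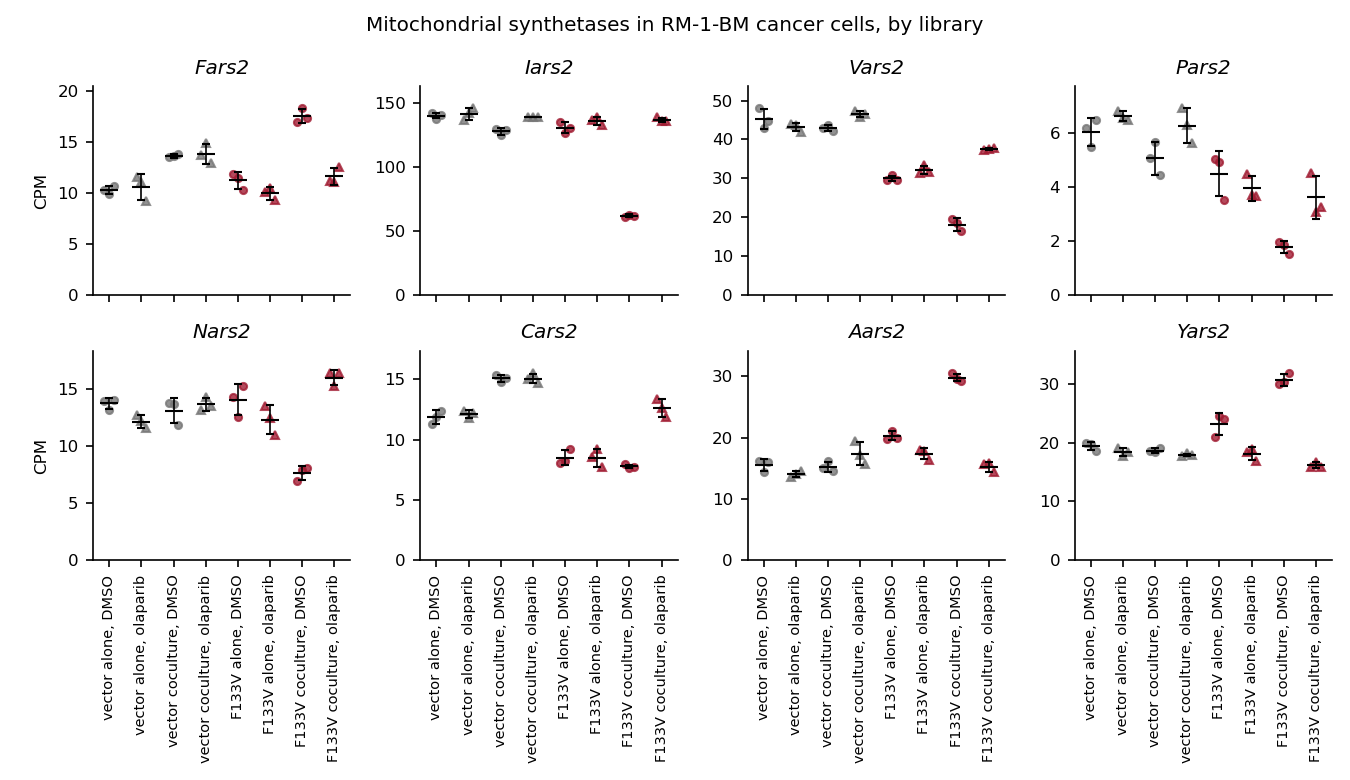
CPM of 8 mitochondrial synthetases in the 24 cancer libraries (linear axes from 0; circles DMSO, triangles olaparib, grey vector, red F133V; black bars mean ± SD of 3 libraries). In F133V coculture with DMSO, Iars2, Vars2, Pars2 and Nars2 are at their lowest and Fars2, Aars2 and Yars2 at their highest, and with olaparib these genes lie closer to the vector groups.

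Scaling moved the split in this comparison. With library size alone, the median of all genes was −0.31, and 9 members were higher and 20 lower in place of 18 and 14; with length and GC trends removed, 25 were higher and 10 lower. The cytosolic median minus the mitochondrial median stayed positive, between 0.34 and 0.53 under the alternatives (0.38 here). Genes of the interferon response were low in the same libraries, with all 8 tested of the 10 listed called lower in F133V coculture with DMSO (median −2.07), and their part in the result was not tested.

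In coculture with olaparib F133V cells had 14 cytosolic members higher and 3 lower (median 0.24) and 2 mitochondrial members higher and 12 lower (median −0.21). Here 28.8% of all genes were higher and 31.2% lower. Rars (324, 329 and 331 against 224, 229 and 223 CPM; 0.54 ± 0.02), Wars (496, 510 and 500 against 349, 348 and 351 CPM; 0.52 ± 0.02) and Nars (0.49 ± 0.02) differed most. Among the mitochondrial members Pars2 was lowest again (4.52, 3.05 and 3.26 CPM against 6.90, 6.28 and 5.61 CPM; −0.80 ± 0.13, adjusted p = 6.8e-07), followed by Mars2 (−0.39 ± 0.06) and Rars2 (−0.35 ± 0.08). Iars2 was not called here. The split was 20 higher and 7 lower in place of 16 and 15 with length and GC trends removed.

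Coculture was compared with growth alone in each genotype. In vector cells Wars, the tryptophan enzyme, had the largest change. With DMSO, Wars read 406, 402 and 409 CPM in coculture and 279, 285 and 285 CPM alone (0.52 ± 0.02, adjusted p = 2.4e-20), and with olaparib 349, 348 and 351 CPM against 208, 209 and 214 CPM (0.73 ± 0.02, adjusted p = 7.2e-25). Interferon genes were higher in the same 2 comparisons, 6 of 8 tested in each, and their part in the change of Wars was not tested. In other comparisons their median went either way. With coculture of F133V cells under olaparib, Wars rose by 0.39 and the interferon median was 0.40. In macrophages with olaparib, Wars was higher by 0.38 with the F133V than the vector partner, with an interferon median of 0.49. In the comparisons given next, the median went the other way from Wars. Wars was higher in F133V than vector cells alone with DMSO, alone with olaparib and in coculture with olaparib. The interferon medians there were −0.36, −0.58 and −0.42. With olaparib in vector cells alone, Wars was lower and the interferon median was 0.47. Farsa (0.31 ± 0.04 and 0.25 ± 0.04) and Gars, the glycine enzyme (0.24 ± 0.02 and 0.38 ± 0.02), were higher too, and among mitochondrial members Fars2 (0.41 ± 0.07 and 0.37 ± 0.07) and Cars2 (0.35 ± 0.06 and 0.31 ± 0.06).

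With DMSO 10 cytosolic members were higher and 5 lower (median 0.05) and 3 mitochondrial members were higher and 3 lower (median −0.06), against 23.4% and 18.6% of all genes. With olaparib 15 cytosolic members were higher and 3 lower (median 0.15) and 6 mitochondrial members higher and 1 lower (median 0.11), against 25.5% and 18.5%. The DMSO split of 13 higher and 8 lower was 10 and 12 with library size alone and 10 and 11 with protein-coding genes only. A fit without the vector libraries that held Lyz2 leaves 1 library in the group grown alone, so its split is not given.

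In F133V cells with DMSO, coculture went with higher Qars and Tars and lower Pars2 and Iars2. These libraries in coculture also enter the genotype comparison above. Qars read 161, 163 and 159 CPM in coculture and 91.2, 86.7 and 89.7 CPM alone (0.85 ± 0.03, adjusted p = 4.4e-26), Tars rose by 0.72 ± 0.02 and Aars by 0.56 ± 0.02. On the mitochondrial side, Pars2 (−1.32 ± 0.16), Iars2 (−1.08 ± 0.03), Nars2 (−0.87 ± 0.08) and Vars2 (−0.72 ± 0.05) fell, and Fars2 (0.64 ± 0.07), Aars2 (0.56 ± 0.06) and Yars2 (0.40 ± 0.05) rose. In total 13 cytosolic members rose and 5 fell (median 0.23), and 4 mitochondrial members rose and 8 fell (median −0.14), against 35.6% and 34.8% of all genes. Between these groups Gm26917 differed by 0.10 ± 0.04 on the log2 scale and mt-Rnr2 by 0.26 ± 0.05, and their part was not tested. With library size alone the split was 12 higher and 21 lower in place of 17 and 13, with the median of all genes at −0.20.

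The response to coculture with DMSO differed between genotypes for 18 cytosolic and 10 mitochondrial members, against 62.7% of all genes. The 2 members with the smallest p were Qars (F133V minus vector 0.96 ± 0.04, adjusted p = 1.7e-22) and Iars2 (−0.95 ± 0.04, adjusted p = 4.5e-22). For Tars the difference was 0.70 ± 0.03. There were 16 positive and 12 negative differences, or 8 and 19 with library size alone, and the cytosolic median of 0.15 was then −0.01.

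With olaparib, coculture of F133V cells raised Farsa (54.9, 56.6 and 55.1 against 34.8, 38.5 and 37.2 CPM; 0.59 ± 0.04), Cars (0.47 ± 0.02) and Wars (0.39 ± 0.02), and among the mitochondrial members Cars2 (0.57 ± 0.07) and Nars2 (0.38 ± 0.07), while Tars2 fell (−0.35 ± 0.04). Of the cytosolic members 15 rose and 3 fell (median 0.15), and of the mitochondrial ones 6 rose and 6 fell (median 0.01), against 26.7% and 26.5% of all genes. With library size alone 17 members rose and 13 fell in place of 21 and 9, and without replicate 1 of F133V cells alone with olaparib 22 rose and 5 fell. Across both treatments the ratio of Farsb to Farsa per length in F133V cells was 3.90 ± 0.12 and 3.59 ± 0.02 in coculture (DMSO and olaparib), against 6.32 ± 0.20 and 6.10 ± 0.34 alone.

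Olaparib was then compared with DMSO. In vector cells grown alone, most cytosolic members fell by a small step. Of the 20, 17 fell and only Qars rose (median −0.19), whereas 4 of the 17 mitochondrial members fell and 1 rose (median −0.05). Of all genes 15.3% were higher and 15.1% lower, so 17 of 20 cytosolic members stands above the background of lower calls. Lars, the leucine enzyme, read 221, 230 and 230 CPM with olaparib and 314, 313 and 316 CPM with DMSO (−0.47 ± 0.03, adjusted p = 1.1e-17), Wars 208, 209 and 214 against 279, 285 and 285 CPM (−0.43 ± 0.02), and Rars 192, 194 and 193 against 256, 257 and 254 CPM (−0.40 ± 0.02). The groups do not overlap in these 3 genes. Ears2 (−0.28 ± 0.08) and Tars2 (−0.21 ± 0.04) were the mitochondrial members with the largest falls. A fit without the 2 vector libraries that held Lyz2 leaves 1 library of vector cells alone with DMSO, so its calls are not given. Across all alternatives, with that fit among them, the cytosolic median stayed between −0.22 and −0.18.

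In vector coculture olaparib lowered 14 cytosolic members (median −0.09), with Nars (−0.22 ± 0.02), Wars (−0.22 ± 0.02) and Lars (−0.20 ± 0.03) at the head. It raised 4 mitochondrial members, Sars2 (0.23 ± 0.08), Aars2, Iars2 (0.12 ± 0.03) and Vars2 (0.11 ± 0.04), with a median of 0.03 for the class. Across all genes 12.6% were higher and 10.9% lower. In edgeR's test the calls of Sars2 and Vars2 were lost without single libraries (adjusted p up to 0.23 for Sars2 and up to 0.13 for Vars2), that of Sars2 also without the filter on low counts, and both with length and GC trends removed. In the last case 1 member rose and 18 fell in place of 4 and 14. In F133V cells alone, 16 cytosolic members fell (median −0.10), led by Farsb (130, 134 and 125 against 151, 154 and 155 CPM; −0.24 ± 0.03), Yars (−0.20 ± 0.03) and Farsa (−0.19 ± 0.04). Of the mitochondrial members 6 fell and Rars2 rose (median −0.18), with Yars2 (−0.36 ± 0.05) the largest fall beside that of Lars2. Background shares were 18.2% higher and 17.9% lower, and library size alone gave 4 members higher and 12 lower in place of 1 and 22.

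In F133V coculture, olaparib went with higher Iars2, Nars2 and Vars2 and lower Aars2, Yars2, Tars and Qars. The DMSO libraries here are the ones used in the comparisons of F133V coculture above, so the values are not independent of those. Iars2 read 139, 136 and 136 CPM with olaparib and 60.8, 62.9 and 62.1 CPM with DMSO (1.15 ± 0.03, adjusted p = 6.3e-30), and Nars2 16.4, 15.3 and 16.4 CPM against 6.98, 7.88 and 8.12 CPM (1.07 ± 0.08, adjusted p = 2.8e-15). For both, the olaparib libraries lie above the DMSO libraries without overlap. Vars2 (1.04 ± 0.05), Pars2 (1.00 ± 0.16), Cars2 (0.70 ± 0.07) and the cytosolic Dars (142, 145 and 145 against 96.3, 98.6 and 97.2 CPM; 0.56 ± 0.03) rose as well. Aars2 (−0.97 ± 0.06), Yars2 (−0.92 ± 0.05), Tars (327, 333 and 332 against 559, 572 and 567 CPM; −0.78 ± 0.02) and Qars (93.9, 96.4 and 92.7 against 161, 163 and 159 CPM; −0.77 ± 0.03) fell.

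By class, 7 cytosolic members rose and 11 fell (median −0.15), and 8 mitochondrial members rose and 7 fell (median 0.10, or 0.23 without Lars2), against 39.3% of all genes higher and 37.0% lower. With library size alone the median of all genes was 0.23, the cytosolic median 0.05, and the split 20 higher and 11 lower in place of 15 and 18; with length and GC trends removed it was 11 and 22, and the mitochondrial median was −0.02. In the same comparison Gm26917 (−3.07 ± 0.05) and mt-Rnr2 (−2.02 ± 0.05) fell on the log2 scale, and all 8 interferon genes tested rose (median 1.60); their part was not tested.

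The olaparib response in coculture differed between genotypes for 17 cytosolic and 12 mitochondrial members (67.4% of all genes), with Iars2 (F133V minus vector 1.03 ± 0.04, adjusted p = 1.3e-23) and Qars (−0.79 ± 0.04, adjusted p = 3.2e-20) at the smallest p. Within F133V cells, the olaparib response differed between coculture and growth alone for 17 cytosolic and 13 mitochondrial members (64.5% of all genes), with Iars2 (coculture minus alone 1.09 ± 0.04, adjusted p = 5.9e-24) and Tars (−0.64 ± 0.03, adjusted p = 7.8e-21) first. These interactions share groups with the comparisons above and add the test of the difference. Their splits were 15 positive and 14 negative, and 17 and 13, which became 21 and 8, and 21 and 10, with library size alone.

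Macrophages are the second cell type. With DMSO, macrophages that faced F133V cells had higher levels of nearly every cytosolic member than macrophages that faced vector cells. Of the 20, 18 were higher, Dars was lower and Qars was not called (median 0.31). Of the 17 mitochondrial members 7 were higher and Iars2 was lower (median 0.10), against 25.5% of all 14262 genes higher and 28.1% lower (median −0.01). Summed cytosolic levels were 5097 ± 37.1 CPM with the F133V partner and 3809 ± 30.4 CPM with the vector partner (SD, n = 3), while the mitochondrial members other than Lars2 summed to 453 ± 10.3 and 428 ± 8.16 CPM.

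Wars (chromosome 12, 108860030 to 108894174, minus strand) had the largest change. It read 307, 309 and 301 CPM with the F133V partner and 153, 154 and 154 CPM with the vector partner (1.00 ± 0.02, adjusted p = 2e-41). Lars read 289, 286 and 288 CPM against 177, 182 and 185 CPM (0.67 ± 0.02, adjusted p = 5.1e-33), and Rars 218, 217 and 215 CPM against 139, 146 and 145 CPM (0.59 ± 0.02, adjusted p = 5.7e-30). The groups are far apart in each gene. Interferon genes were higher in the same comparison, 4 of 7 tested (median 0.86), and their part in the change of Wars was not tested. Eprs (0.56 ± 0.02), Nars, Gars (both 0.55 ± 0.02) and Iars (0.54 ± 0.02) followed closely. Dars read 87.0 ± 1.44 against 108 ± 0.452 CPM (SD, n = 3; −0.31 ± 0.03), and the largest mitochondrial rises were in Yars2 (0.34 ± 0.05), Mars2 (0.32 ± 0.05) and Cars2 (0.28 ± 0.06).

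**Figure D5:**
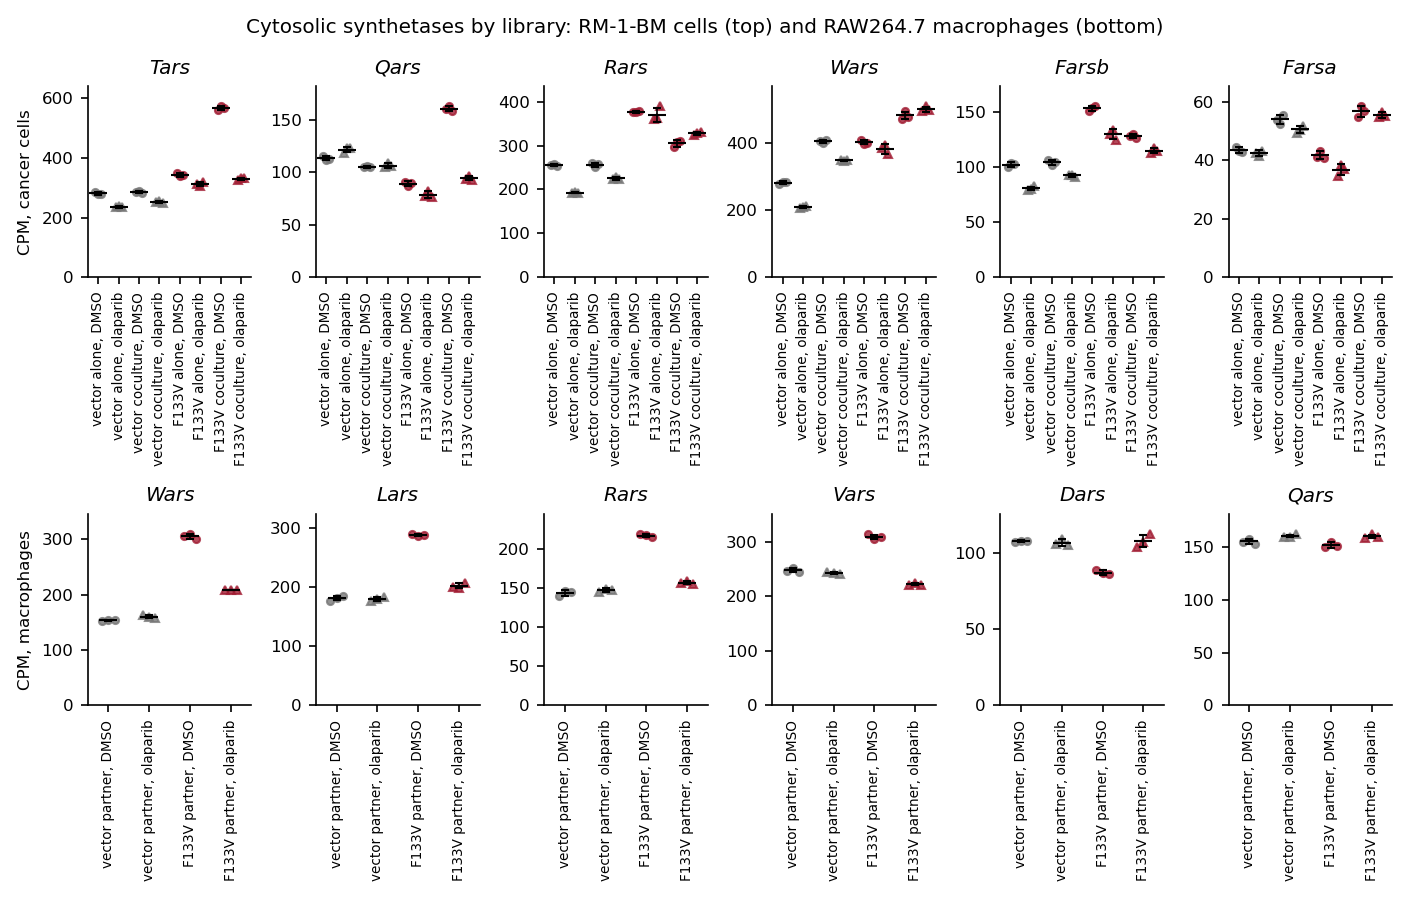
CPM of cytosolic synthetases by library (linear axes from 0; circles DMSO, triangles olaparib, grey vector, red F133V cells or partner; black bars mean ± SD of 3 libraries), with 6 genes in the 8 cancer groups above and 6 genes in the 4 macrophage groups below. Tars and Qars peak in F133V coculture with DMSO, and in macrophages Wars, Lars, Rars and Vars are highest, and Dars lowest, with the F133V partner and DMSO.

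Olaparib went with lower cytosolic members in macrophages with an F133V partner, a comparison that shares its DMSO libraries with the one above. With the F133V partner 18 cytosolic members fell, and Dars and Qars rose (median −0.30), while 9 mitochondrial members fell, and Wars2 and Iars2 rose (median −0.14), against 28.5% of all genes higher and 29.0% lower. Wars read 208, 209 and 208 CPM with olaparib and 307, 309 and 301 CPM with DMSO (−0.56 ± 0.02, adjusted p = 3.4e-31), Lars 200, 199 and 207 against 289, 286 and 288 CPM (−0.51 ± 0.02), and Vars, the valine enzyme, 221, 224 and 221 against 313, 305 and 308 CPM (−0.48 ± 0.02). Mars2 (−0.39 ± 0.05), Yars2 (−0.37 ± 0.05) and Cars2 (−0.35 ± 0.06) had the largest mitochondrial falls. Of 7 interferon genes tested 3 were lower here (median −0.50), and their part in the change of Wars was not tested. With the vector partner 5 of the 37 members were called, none by more than 0.25 apart from Lars2: Gars (−0.09 ± 0.02) and Sars2 (−0.25 ± 0.08) fell, and Wars (0.06 ± 0.02), Sars (0.04 ± 0.02) and Lars2 rose, against 14.0% and 14.5% of all genes. Lars2 read 4784, 4456 and 4769 CPM with olaparib against 2991, 2669 and 2831 CPM (0.72 ± 0.08, adjusted p = 1.7e-10). With library size alone Wars and Sars turned negative (−0.02 and −0.04), neither called, and 18 members were called, of which 1 rose, and the split of 3 and 2 was 5 and 2 with RLE scaling or protein-coding genes only, and 9 and 2 with length and GC trends removed.

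The difference between the partners' olaparib responses, F133V minus vector, was called for 19 cytosolic and 9 mitochondrial members, against 49.3% of all genes. Wars (−0.62 ± 0.03, adjusted p = 1.9e-25) and Iars (−0.47 ± 0.02, adjusted p = 1.1e-22) had the smallest p. With olaparib in both, the partners still differed in Wars (208, 209 and 208 against 163, 159 and 158 CPM; 0.38 ± 0.02, adjusted p = 4e-22), Eprs (520, 521 and 521 against 442, 435 and 430 CPM; 0.26 ± 0.02) and Gars (0.22 ± 0.02). In that comparison 11 cytosolic members were higher and 5 lower (median 0.07), and 2 mitochondrial members were higher and Lars2 was lower (median 0.01), against 17.6% of all genes higher and 17.6% lower. The split of 13 and 6 was 19 and 4 with library size alone and 10 and 9 with length and GC trends removed. The mitochondrial ribosomal RNA mt-Rnr2 also differed by partner under DMSO (511 against 354 CPM; 0.53 ± 0.02), and its part was not tested.

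Between cell types, in the coculture of vector cells with DMSO, most cytosolic synthetases were lower in macrophages than in the cancer cells opposite them. Of the 17 mitochondrial ones, 10 were higher. Cell type, side of the transwell and set of libraries cannot be told apart in this comparison. In a joint fit of all 36 libraries, 16 cytosolic members were lower and 3 higher in macrophages (median −0.53), while 10 mitochondrial members were higher and 3 lower (median 0.20). Background shares were 39.8% of 17295 genes higher and 42.4% lower (median −0.05). Wars (158, 160 and 160 CPM in macrophages, 399, 398 and 403 CPM in cancer cells; −1.33 ± 0.02), Gars (−1.26 ± 0.02), Eprs (−1.11 ± 0.02) and Aars (−0.98 ± 0.02) differed most. Qars was the cytosolic exception with the largest value (0.64 ± 0.03), beside Hars and Farsa. Tars2, the mitochondrial threonine enzyme, read 78.1, 76.9 and 74.8 CPM in macrophages and 36.9, 35.3 and 35.8 CPM in cancer cells (1.09 ± 0.04, adjusted p = 1.5e-33), and Sars2 (0.67 ± 0.08) and Wars2 (0.65 ± 0.04) were higher as well. With length and GC trends removed the split was 17 higher and 15 lower in place of 13 and 19, while the cytosolic minus mitochondrial median stayed between −0.83 and −0.72 under the alternatives.

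Gars and Kars, the genes that serve both compartments, are given together. Gars was higher in F133V cells with olaparib, alone (0.14 ± 0.02) and in coculture (0.09 ± 0.02), and lower in coculture with DMSO (−0.07 ± 0.02). Kars, the lysine enzyme, was lower in F133V cells alone with DMSO (−0.11 ± 0.03), alone with olaparib (−0.17 ± 0.03) and in coculture with olaparib (−0.12 ± 0.03), and was not called in coculture with DMSO (0.05 ± 0.03). Coculture went with higher Kars in all 4 comparisons (0.13 to 0.28) and higher Gars in all 4 (0.21 to 0.38). In macrophages with the F133V partner and DMSO, Kars was higher by 0.23 ± 0.03.

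The cytosolic members were next divided into 13 known to be linked to ATF4 and 7 others, and set beside 33 further genes linked to ATF4, such as Asns (asparagine synthesis), Psat1 and Phgdh (serine synthesis), Trib3 and Chac1. In macrophages with the F133V partner and DMSO, 13 of 13 linked synthetases (median 0.38) and 26 of 32 further ATF4 genes tested (median 0.66) were higher, against 25.5% of all genes, and Atf4 itself read 465 against 333 CPM (0.48 ± 0.02). Asns read 208 against 126 CPM (0.73 ± 0.02), and Phgdh 384 against 215 CPM (0.84 ± 0.02). With olaparib and the F133V partner, 13 of 13 linked synthetases (median −0.31) and 23 of 32 further genes (median −0.33) were lower, against 29.0% of all genes, but Trib3 was not called (168 against 172 CPM) and Atf4 fell by 0.10 ± 0.02 on the log2 scale. The lists parted for olaparib with the vector partner, where 14.0% of all genes were higher and 14.5% lower. There 17 of 32 further genes were higher and 4 lower (median 0.11). Of the 13 linked synthetases, 2 were higher and 1 lower (median 0.01). Myc, another known regulator of such genes, was low in these macrophages, at 1.63 CPM with the F133V and 4.79 CPM with the vector partner under DMSO (−1.55 ± 0.13). The part of Atf4 or Myc in these changes was not tested.

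In vector cells grown alone, olaparib lowered 13 of 13 linked synthetases (median −0.25) and 32 of 33 further ATF4 genes (median −0.29), against 15.1% of all genes lower, and Atf4 read 450 against 534 CPM (−0.25 ± 0.02). In F133V coculture with DMSO against vector, 10 linked synthetases were higher and 3 lower (median 0.26), with 22 of the 33 further genes higher and 10 lower (median 0.35), where 37.4% of all genes were higher and 42.0% lower. Among them, Asns (0.64 ± 0.03) and Trib3 (0.86 ± 0.03) were higher and Chac1 (−0.81 ± 0.04) was lower. Atf4 read 902 against 512 CPM (0.82 ± 0.02), and Myc 111 against 31.8 CPM. For the 7 other cytosolic members the counts were 3 higher and 2 lower in that comparison (median 0.07), 5 higher and 1 lower in macrophages with the F133V partner and DMSO (median 0.22), and 4 lower and 1 higher with olaparib in vector cells alone (median −0.09). Between cell types, 12 of 13 linked synthetases (median −0.76) and 29 of 33 further genes (median −1.22) were lower in macrophages, against 42.4% of all genes.

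Promoter sequence was searched for the motif TGATGNAA, the composite element of C/EBP and ATF factors, because many ATF4 targets carry it. RefSeq promoters (GRCm38.p6) were given for 27 members, 13 cytosolic and 14 mitochondrial, and the 250 bases before the start were read on both strands. The motif was found in 3 of the 13 cytosolic promoters and none of the mitochondrial ones, against 3.53% of 27025 promoters of that length. These 3 stretches are shown because they lie in members that rose with the F133V partner in macrophages, with the motif, read here on the reverse strand, in capitals.
Aars, chr8:111033714-111033753, plus strand: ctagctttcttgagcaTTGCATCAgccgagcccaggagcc
Gars, chr6:55037955-55037994, plus strand: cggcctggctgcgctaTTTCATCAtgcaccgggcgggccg
Tars, chr15:11399659-11399689, minus strand: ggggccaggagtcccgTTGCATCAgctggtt
The matches begin 112, 30 and 15 bases before the start of Aars, Gars and Tars. Iars, Eprs and Sars, which were searched and held no match, were higher with the F133V partner as well.

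The E-box CACGTG, a motif bound by Myc and related factors, was found in 3 of 13 cytosolic promoters (Aars, Farsb and Iars) and none of the 14 mitochondrial ones, against 6.05% of all promoters. Farsb and Iars are shown with the motif in capitals because Farsb was among the largest genotype differences in cells grown alone.
Farsb, chr1:78488915-78488952, minus strand: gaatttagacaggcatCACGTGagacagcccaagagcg
Iars, chr13:49682045-49682082, plus strand: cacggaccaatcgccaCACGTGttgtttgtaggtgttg
The motif GAAANNGAA, a core of the interferon-stimulated response element, was found in Qars alone among the 27 (7.16% of all promoters), and no promoter entry was given for Wars. A match is a description of the letters and does not show binding.

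The scaffolds of the multisynthetase complex were read beside its 8 enzymes. In F133V cells alone with DMSO, Eef1e1 read 38.6 against 25.8 CPM (0.58 ± 0.04) and Aimp2 31.7 against 23.6 CPM (0.43 ± 0.05), while of the enzymes 4 were higher and 3 lower (median 0.07), near the 33.7% and 34.0% of all genes. In F133V coculture with DMSO, Eef1e1 (0.73 ± 0.04) and Aimp2 (0.41 ± 0.04) were higher and Aimp1 lower (47.0 against 65.9 CPM; −0.48 ± 0.04), and the 8 enzymes had 4 higher and 3 lower (median 0.15), against 37.4% and 42.0% of all genes. In macrophages with the F133V partner and DMSO, 6 enzymes of the complex were higher and 1 lower (median 0.39, against 25.5% and 28.1% of all genes), Eef1e1 was higher (0.29 ± 0.05), and Aimp1 (−0.14 ± 0.04) and Aimp2 (−0.19 ± 0.04) were lower.

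Synthetases fall into 2 structural classes by their catalytic domain, and 18 members of each were listed. In macrophages with the F133V partner and DMSO, 13 class I members were higher and 1 lower (median 0.27), and 11 class II members were higher and 1 lower (median 0.16), against 25.5% and 28.1% of all genes. In F133V coculture with DMSO the counts were 9 higher and 6 lower in class I (median 0.08) and 8 higher and 8 lower in class II (median 0.06), near the 37.4% and 42.0% of all genes.

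Other genes of mitochondrial translation were read beside the mitochondrial synthetases. Of 15 such factors, 1 was higher and 9 lower in F133V than vector coculture with DMSO (median −0.20), and 10 were higher and 2 lower with olaparib in F133V coculture (median 0.16). Of all genes, 37.4% were higher and 42.0% lower in the first and 39.3% and 37.0% in the second of these comparisons. The 1 that was higher, Lrpprc, which stabilises mitochondrial mRNAs, read 392 against 214 CPM (0.87 ± 0.03). Among 10 genes of tRNA export, proofreading and related steps, 1 was higher and 7 lower in F133V coculture with DMSO (median −0.62), against the same 37.4% and 42.0%. Xpot, the tRNA exporter, was the one that was higher (883 against 582 CPM; 0.60 ± 0.02), whereas Dtd1, which removes D-amino acids from tRNA, read 0.989 against 4.81 CPM (−2.27 ± 0.13) and Pstk, which acts on the tRNA for selenocysteine, 2.03 against 5.75 CPM (−1.52 ± 0.12). With olaparib in F133V coculture, Dtd1 (1.66 ± 0.14) and Pstk (4.64 against 2.03 CPM) were higher and Xpot was lower (−0.54 ± 0.02). In macrophages with the F133V partner and DMSO, 8 of the 15 mitochondrial translation factors were higher (median 0.18), against 25.5% of all genes.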

How the data were processed

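The authors deposited whole-number read counts per gene for each of the 36 RNA-seq libraries, from total RNA extracted with TRIzol per the labels' protocols. The submitters' processing notes list STAR, TopHat, HTSeq, DESeq2 and GRCm38, without versions or roles, and the strand setting of the counting is not known here. Rows that name no gene were left out of library sizes. They held 17.1% to 21.5% of reads as no feature, 1.2% to 1.36% as ambiguous and 5.48% to 7.18% as not unique. No 2 libraries of a group were identical.

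Counts were fitted with edgeR 4.0.16 (limma 3.58.1, R 4.3.3) by quasi-likelihood with TMM scaling and filterByExpr at a minimum count of 10, in 1 fit per cell type (15962 genes with 16 residual degrees of freedom, and 14262 genes with 8) and a joint fit (17295 genes with 24) for the cell type comparison. There were 22 comparisons, 5 of them interactions, with Benjamini-Hochberg adjustment over all genes and a threshold of 0.05. CPM values are on the TMM scale of the cell type's fit, and of the joint fit for the cell type comparison. Gene positions and exon lengths came from GENCODE M21. Alternatives were RLE scaling, library size alone, DESeq2 1.42.0, no filter, only the groups compared, a replicate block, each library left out and protein-coding genes only. Chosen after seeing the data were a fit without the 2 vector libraries with Lyz2, which leaves 1 library in that group, and a fit with length and GC trends removed.

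The members and gene lists were chosen with earlier results of these data known. Named were, per comparison, up to 3 cytosolic and 3 mitochondrial called members with the largest change and groups that do not overlap, Gars, Kars and Wars, and the 2 called members with the smallest p per interaction. Up to 4 genes were named per other list. Further members were named after their values were seen, to account for a class. Counts and medians cover all members, but the single values of some genes are not reported here. On counts simulated for F133V against vector coculture with DMSO (14576 genes), 82% of 200 changed genes were called and 3.5% of calls were false, with 56% called at a 1.2-fold change. On counts simulated for the macrophage interaction (13693 genes), 76% were called, 4.4% of calls were false and 34% were called at a 1.2-fold change. Every simulated gene had the same spread beyond counting noise, a coefficient of variation of 2.6%. The measured median was 1.46% for cytosolic and 4.04% for mitochondrial members, with up to 29% for Lars2. In the data 12686 of 15962 genes were called for the first comparison, so the simulated rates may not hold for these members.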

Additional observations from a re-analysis of the deposited data

Results flagged for a closer look

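The response of 6 members differed between groups by a test of the difference itself, an interaction term in edgeR with adjustment over all genes. These are the 2 members with the smallest p in each of 5 interactions, and the share of all genes called is given with each in the results.

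Between genotypes, the olaparib response of cells grown alone differed by 0.38 on the log2 scale for Rars and by 0.36 for Wars, F133V minus vector. In coculture it differed by 1.03 for Iars2 and by −0.79 for Qars. The response to coculture with DMSO differed by 0.96 for Qars and by −0.95 for Iars2. Within F133V cells, the olaparib response differed between coculture and growth alone by 1.09 for Iars2 and by −0.64 for Tars. In macrophages, the olaparib response differed between the F133V and vector partner by −0.62 for Wars and by −0.47 for Iars. The 3 coculture interactions share the libraries of F133V coculture with DMSO.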

How the results depend on the processing

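The number of members called stayed within 1.5 times the value reported in 338 of 343 combinations of comparison and alternative. In vector cells alone, 15 members in place of 23 were called for olaparib without the 2 vector libraries with Lyz2. For olaparib in macrophages with the vector partner, the 5 members called became 18 with library size alone and 11 with length and GC trends removed, and ranged from 3 to 5 when single libraries were left out (3 without replicate 1 of DMSO or replicate 2 of olaparib). In that comparison Wars (−0.02) and Sars (−0.04) turned negative with library size alone. Causes were not tested. Counts by class and direction, class medians and the median of all genes were less stable. With length and GC trends removed 71 of these values moved and 105 stayed, and with library size alone 70 moved and 106 stayed. With single libraries left out 212 moved and 1084 stayed, and with DESeq2 18 moved and 158 stayed. A count moved if it changed by over 1.5 times, and a class median if it shifted by at least the spread between libraries. Of the named members' values, 1591 kept direction and call, 29 lost the call and 2 changed sign. The cytosolic minus mitochondrial median, as rounded here, reversed its sign in no comparison under any alternative. For olaparib in macrophages with the vector partner, that difference of medians was 0.03 and ranged from 0.00 to 0.04. Replicate numbers did not pair libraries (same-number correlations of −0.13 to 0.12 in cancer cells and −0.01 to 0.04 in macrophages). With the replicate block, 32 members were called for F133V against vector coculture with DMSO and 27 for the macrophage partner with DMSO, and no count moved by over 1.5 times. The lost calls included those of Sars2, Vars2, Ears2, Sars and Wars in olaparib comparisons, and 3 libraries a group limit the precision of such small changes.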
